A study of Mus musculus with 8 samples.

Results

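The guanylate-binding proteins (GBPs) described here are the 10 mouse genes Gbp2 to Gbp11. They were chosen by name, with earlier results of these data known, and not by their values. Array probes were matched to them through the RefSeq accession that the scanner data give for each probe. This found 10 probes for 9 of the 10 genes, among 21368 gene symbols with a probe. Gbp6 had 2 probes, and Gbp11, which RefSeq lists as a transcribed pseudogene, had none. Gbp5, Gbp6, Gbp7, Gbp8, Gbp9 and Gbp10 were well above background on at least 4 arrays and were tested among 25403 features, a feature being a gene read by 1 probe or a transcript without a symbol. Gbp2, Gbp3 and Gbp4 did not meet that filter and are given by their values, with differences only under alternative settings.

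The RNA came from sorted stem cells of the intestine with a high Lgr5 signal, the crypt cells that renew the gut epithelium, and was hybridised to 8 Agilent 1-colour arrays. The Irf2_AhcKO mice (4 arrays) carried floxed Irf2 alleles (Irf2fl/fl), the Ah-Cre transgene and the Lgr5-EGFP-Ires-CreERT2 knock-in. The control mice (4 arrays) carried Irf2fl/fl and the same knock-in, without Ah-Cre by the labels. Every mouse had received β-naphthoflavone on 5 consecutive days, and its cells were taken 1 month later. Ah-Cre is a recombinase under the Cyp1a1 promoter, which β-naphthoflavone switches on, so recombination is not limited to Lgr5 cells. The labels give no age. Scanner data of control replicates 3 and 4 carry Ah-Cre in their names, which does not match the labelled genotype. The design text speaks of 4 independent mice and also of 2 biological replicates, so the p-values reflect only the spread among these arrays, which may be partly technical.

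GBPs are large GTPases of the dynamin superfamily that interferons, above all interferon gamma, switch on. They assemble on the membranes of vacuoles that hold pathogens and on bacteria in the cytosol, and help to activate inflammasomes, the complexes that trigger pyroptosis. In the mouse the genes lie in 1 cluster on chromosome 3 (Gbp2, Gbp3, Gbp5 and Gbp7) and 1 on chromosome 5 (Gbp4, Gbp6, Gbp8, Gbp9, Gbp10 and Gbp11). IRF2 binds interferon response elements in promoters, best known for holding interferon-induced genes down, and IRF1 can bind the same elements as an activator.

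Promoters of 4 members were at hand, all on chromosome 3, from RefSeq on build GRCm38.p6, each covering 250 bases before to 50 bases after the transcript start. They are shown because the interferon response element is the kind of site that IRF proteins bind. Capitals mark matches to the interferon response motif, GAAA then any 2 bases then GAAA, which on the strand shown reads TTTC, 2 bases, TTTC, and to the gamma-activated motif TTCNNNGAA. All 4 genes lie on the plus strand.
Gbp2, chr3:142620413-142620712: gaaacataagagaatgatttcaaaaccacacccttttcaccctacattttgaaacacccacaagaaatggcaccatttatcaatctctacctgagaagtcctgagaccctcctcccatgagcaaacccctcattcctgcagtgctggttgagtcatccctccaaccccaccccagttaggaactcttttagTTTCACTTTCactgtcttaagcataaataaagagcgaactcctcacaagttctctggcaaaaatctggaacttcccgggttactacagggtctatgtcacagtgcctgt
Gbp3, chr3:142559794-142560093: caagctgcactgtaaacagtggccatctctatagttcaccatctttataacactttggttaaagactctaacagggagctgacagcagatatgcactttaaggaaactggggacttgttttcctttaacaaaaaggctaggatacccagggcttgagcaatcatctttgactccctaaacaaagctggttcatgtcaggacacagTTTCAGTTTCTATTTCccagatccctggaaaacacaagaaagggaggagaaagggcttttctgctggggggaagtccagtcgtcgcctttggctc
Gbp5, chr3:142496684-142496983: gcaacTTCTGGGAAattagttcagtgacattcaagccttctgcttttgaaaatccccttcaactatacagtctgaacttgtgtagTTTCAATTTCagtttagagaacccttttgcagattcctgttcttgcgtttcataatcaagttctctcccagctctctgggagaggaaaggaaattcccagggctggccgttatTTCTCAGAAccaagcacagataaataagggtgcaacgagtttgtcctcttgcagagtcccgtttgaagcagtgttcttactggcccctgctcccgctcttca
Gbp7, chr3:142530086-142530385: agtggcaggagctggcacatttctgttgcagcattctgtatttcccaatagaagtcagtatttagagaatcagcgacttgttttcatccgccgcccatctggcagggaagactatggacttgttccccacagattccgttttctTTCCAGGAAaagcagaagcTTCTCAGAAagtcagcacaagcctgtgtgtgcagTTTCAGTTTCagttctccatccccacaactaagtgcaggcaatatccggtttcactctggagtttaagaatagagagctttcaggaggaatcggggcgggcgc
Both strands were searched. Gbp2 held 1 interferon response motif, beginning 59 bases before the start. Gbp3 held 2 overlapping ones, beginning 45 and 39 bases before its start, and a second listed Gbp3 start held none. Gbp5 held 1 such motif 165 bases before the start, with gamma-activated motifs at 245 and 52 bases. Gbp7 held 1 at 53 bases, with gamma-activated motifs at 106 and 87 bases. Of 32851 promoters of this length, 3.44% held the interferon response motif, 8.30% the gamma-activated motif and 0.454% both. A match is a run of letters and no measured binding site. Gbp4, Gbp6, Gbp8, Gbp9, Gbp10 and Gbp11 are named without a promoter.

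Levels are log2 signals after subtraction of each array's 75th percentile, so 0 is the brightness of that percentile and 1 unit is a doubling. A probe's level is not comparable with another probe's. The share of spots well above background was 61.4% to 69.8% per array, and no spot was saturated. Replicates 1 and 2 of both groups were on slide 1 and replicates 3 and 4 on slide 2. The slides differed in 9014 features (35.5%), so the slide was a term in the fit. Irf2, read by 1 probe, stood at 1.12, 1.1, 0.70 and 0.73 on the arrays labelled Irf2_AhcKO, and at 0.99, 0.55, 0.37 and 0.64 on control arrays. The difference of 0.27 (SE 0.12, limma adjusted p = 0.429) was not a fall. The sources used here do not say where this probe lies relative to the deleted exons, so it does not check the deletion. Epcam averaged 6.08 ± 0.15 in Irf2_AhcKO arrays and 6.24 ± 0.23 in control arrays, and Lgr5 2.88 ± 0.41 in Irf2_AhcKO arrays and 3.17 ± 0.24 in control arrays (SD, n = 4 each), an epithelial and a stem cell marker of the labelled cell type.

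Gbp6 and Gbp10, a pair of chromosome 5 paralogues, were higher on every Irf2_AhcKO array than on any control array, by 3.32-fold and 2.62-fold. Neither passed the threshold of adjusted p below 0.05 over all features. Gbp5, Gbp7, Gbp8 and Gbp9 had overlapping groups. In all, 0 of the 6 tested members passed (limma), against 25 of 25403 features (0.0984%), of which 14 (0.0551%) were higher and 11 (0.0433%) lower in Irf2_AhcKO. At an unadjusted p below 0.05, 3 of the 6 were higher (Gbp5, Gbp6 and Gbp10), against 5.98% of all features, and none was lower, against 5.74% (11.7% in either direction). The groups did not overlap, with Irf2_AhcKO higher, for 2 of the 6, against 1.74% of all features. A positive difference was seen in 5 of the 6, against 49.5%, and a positive difference on both slides in 4 of the 6, against 30.6%. The median difference of the 6 was 0.38, beside 0.00 for all features.

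**Figure D1:**
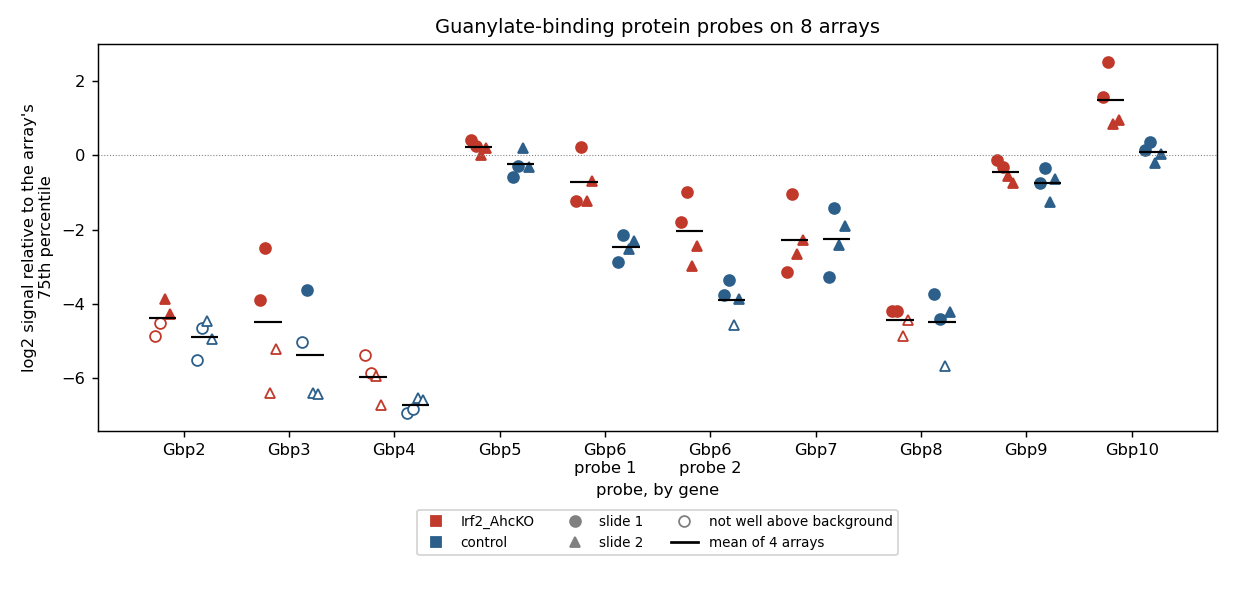
Log2 signal above or below the array's 75th percentile (y axis) for each of the 10 GBP probes (x axis), Irf2_AhcKO arrays in red to the left and control arrays in blue to the right, with circles for slide 1, triangles for slide 2, open symbols where the probe was not well above background and bars for the mean of 4 arrays. Both Gbp6 probes and the Gbp10 probe have every Irf2_AhcKO array above every control array, and Gbp4 has open symbols only.

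Gbp6 belongs to the GBPs that macrophages use against intracellular bacteria. The probe that represents it stood at -1.22, 0.23, -1.22 and -0.69 on Irf2_AhcKO arrays 1 to 4, and at -2.87, -2.14, -2.52 and -2.30 on control arrays 1 to 4. Every Irf2_AhcKO array lay above every control array, and Irf2_AhcKO replicate 2 was the highest. Group means were -0.73 ± 0.68 in Irf2_AhcKO and -2.46 ± 0.31 in control (SD, n = 4 each), a difference of 1.73 (SE 0.34, 95% interval 0.92 to 2.54, limma adjusted p = 0.169). It was larger than 99.9% of the differences of all features. With normexp background correction, which adds an offset, the difference was 0.93.

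The second Gbp6 probe gave -1.80, -0.99, -2.97 and -2.43 on Irf2_AhcKO arrays, against -3.76, -3.34, -4.57 and -3.87 on control arrays. These groups did not overlap either, and replicate 2 was again the highest array within each group. The probe was well above background on 4 Irf2_AhcKO arrays and 3 control arrays. Its difference was 1.84 (SE 0.28, limma adjusted p = 0.131 in a fit of every kept probe), and 0.66 with normexp.

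Gbp10, a close relative of Gbp6 and inducible by interferon gamma, stood at 1.58, 2.52, 0.85 and 0.95 on Irf2_AhcKO arrays, against 0.16, 0.37, -0.22 and 0.04 on control arrays. Processed intensity before scaling was 405 to 1302 in Irf2_AhcKO and 191 to 294 in control. In each group both slide 1 arrays were above both slide 2 arrays, and the 4 control arrays lay closer together than the Irf2_AhcKO arrays. Means were 1.48 ± 0.77 in Irf2_AhcKO and 0.09 ± 0.25 in control (SD, n = 4 each). The difference was 1.39 (SE 0.25, 95% interval 0.80 to 1.97, limma adjusted p = 0.134), above 99.8% of all features. Of the alternatives run, the adjusted p of Gbp10 was below 0.05 only when the variance model had a trend and robust fitting (adjusted p = 0.0324). Gbp6 and Gbp10 are similar in sequence, and whether a probe of one also binds RNA of the other was not tested.

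Gbp9, also on chromosome 5, stood at -0.13, -0.31, -0.55 and -0.75 on Irf2_AhcKO arrays and at -0.73, -0.35, -1.25 and -0.62 on control arrays. The groups overlapped, with control replicate 3 the lowest. The difference was 0.30 (SE 0.16, limma adjusted p = 0.486).

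Gbp8 was dim, well above background on 2 Irf2_AhcKO and 3 control arrays. It gave -4.19, -4.18, -4.86 and -4.44 on Irf2_AhcKO arrays, against -3.72, -4.39, -5.66 and -4.22 on control arrays. The highest and the lowest value both came from control arrays. The difference of 0.08 (SE 0.32, 95% interval -0.69 to 0.84, limma adjusted p = 0.936) changed sign on slide 1 alone (-0.13). Gbp4 was not well above background on any array, at -5.37, -5.85, -5.93 and -6.71 in Irf2_AhcKO and -6.94, -6.82, -6.54 and -6.58 in control, so no fold is given.

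On chromosome 3, Gbp5, which promotes assembly of the NLRP3 inflammasome in macrophages, stood at 0.40, 0.26, 0.01 and 0.20 on Irf2_AhcKO arrays, against -0.57, -0.29, 0.21 and -0.30 on control arrays. Control replicate 3 lay inside the Irf2_AhcKO range and the other control arrays below it. The difference was 0.46 (SE 0.18, 95% interval 0.04 to 0.87, limma adjusted p = 0.397). It was 0.76 on slide 1 and 0.15 on slide 2.

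Gbp7, which in macrophages helps to assemble the phagocyte oxidase at vacuoles, gave -3.14, -1.03, -2.64 and -2.29 on Irf2_AhcKO arrays and -3.27, -1.41, -2.42 and -1.89 on control arrays. Within each group replicate 1 was lowest and replicate 2 highest, and same-numbered arrays lay within 0.40 units of each other. The difference was -0.03 with an SE of 0.55 (95% interval -1.33 to 1.28, limma adjusted p = 0.990). With the replicate number as a block the SE was 0.15 and the adjusted p 0.951.

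Gbp2, a lipid-anchored GBP that coats parasite vacuoles in infected cells, gave -4.85, -4.52, -3.87 and -4.26 on Irf2_AhcKO arrays, against -5.51, -4.65, -4.47 and -4.93 on control arrays. It was well above background on 2 Irf2_AhcKO arrays (replicates 3 and 4) and on no control array. The groups overlapped, and no fold is given. Gbp3, of the same cluster, gave -3.90, -2.49, -6.38 and -5.20 on Irf2_AhcKO arrays, against -5.02, -3.63, -6.39 and -6.42 on control arrays. It was well above background on 2 Irf2_AhcKO arrays and 1 control array, all on slide 1, and the groups overlapped.

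**Figure D2:**
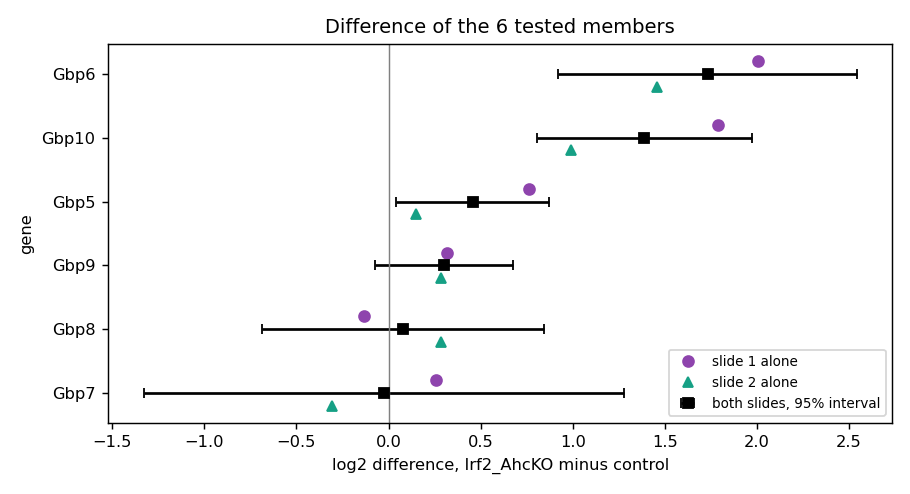
Log2 difference between Irf2_AhcKO and control (x axis) for the 6 tested genes (y axis), with squares for the fit over both slides, bars for its 95% interval, circles for slide 1 alone and triangles for slide 2 alone. The squares of Gbp6 (1.73) and Gbp10 (1.39) lie farthest to the right, Gbp5 has a slide 1 value of 0.76 and a slide 2 value of 0.15, and Gbp7 and Gbp8 have slide values on either side of 0.

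The differences of 4 members were positive on both slides. Gbp6 differed by 2.01 on slide 1 and 1.45 on slide 2, and Gbp10 by 1.79 on slide 1 and 0.99 on slide 2. Gbp9 differed by 0.32 on slide 1 and 0.28 on slide 2. A term for unequal differences between slides passed for none of the 6 members and for 0 of 25403 features (0%). At an unadjusted p below 0.05 it held for 0 of the 6 members and 4.29% of all features, with unadjusted p = 0.109 for Gbp10, 0.0765 for Gbp5 and 0.462 for Gbp6 (adjusted p = 0.999 each). Group-independent levels of the 6 members did not pass between slides, Gbp10 coming nearest at 0.75 higher on slide 1 (adjusted p = 0.0525).

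Compared by replicate number, the Irf2_AhcKO array lay above its control partner in all 4 pairs for Gbp6 and Gbp10, 2 of the 6 tested members, against 11.9% of all features. The Gbp6 pairs differed by 1.65, 2.37, 1.30 and 1.61, and the Gbp10 pairs by 1.43, 2.15, 1.07 and 0.91. Gbp5 and Gbp9 were higher in 3 of 4 pairs and Gbp7 in 2 of 4. With the replicate number as a block, 0 of 25403 features passed (0%) and 13% had an unadjusted p below 0.05, 2 of the 6 members (Gbp6 and Gbp10) among them. The blocked adjusted p was 0.129 for Gbp6 and 0.207 for Gbp10.

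**Figure D3:**
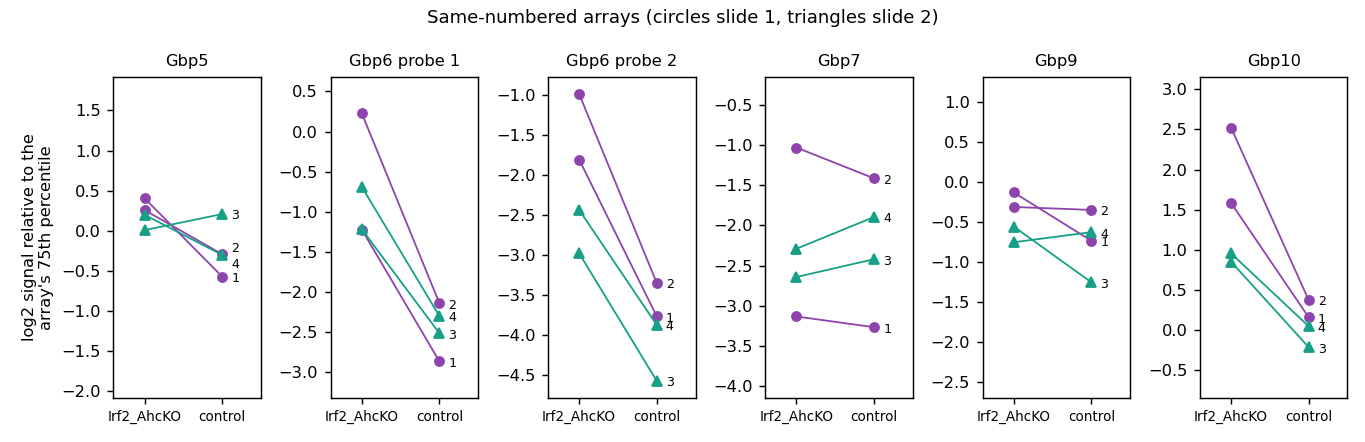
Log2 signal above or below the array's 75th percentile (y axis, each panel spanning the same number of units) for the Irf2_AhcKO array and the control array of the same replicate number, joined by lines, in purple with circles for slide 1 and green with triangles for slide 2. Every line falls towards control for both Gbp6 probes and Gbp10, while the 4 Gbp7 lines lie nearly level at different heights.

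The members were also compared by distance. Over the 8 arrays, each gene was centred on its mean. Gbp6 and Gbp10 lay nearest to each other among pairs of tested members (root mean square difference 0.40 log2 units). Gbp5 and Gbp9, and Gbp8 and Gbp9, came next (0.42 each), and Gbp6 and Gbp8 lay farthest apart (1.07). Among 13447 named genes above background on every array, the nearest to Gbp10 by this measure were Gm12250 (0.30), an immunity-related GTPase also called Irgb10, the immunoproteasome subunit Psmb9 (0.32) and H2-DMb1 (0.35), which edits peptide loading on MHC class II. The nearest to Gbp6 were Clic5 (0.29), a chloride channel family member that passed the test (2.02, SE 0.23, limma adjusted p = 0.0482), the GTPase Tgtp2 (0.34) and Rnf157 (0.37), a ubiquitin ligase. The nearest to Gbp5 were Gm3002 (0.12), Cpne5 (0.12), a copine, and Acvr1 (0.14), a BMP receptor. The measure includes the difference between the groups and is not scaled to a gene's spread, so it describes these 8 arrays only. Gbp10, Gbp6 and Gbp5 were taken for it as the tested members of smallest unadjusted limma p.

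The list of other interferon-inducible large GTPases held 12 genes, of which 9 were measured, with a median difference of 0.83 and 0 passing in either direction. At an unadjusted p below 0.05, 5 were higher in Irf2_AhcKO, against 5.98% of all features, and 2 lower, against 5.74%. Irgm1, a regulator of the other immunity-related GTPases, averaged 0.18 ± 0.43 in Irf2_AhcKO and -0.65 ± 0.18 in control (SD, n = 4 each), without overlap (difference 0.83, SE 0.14, limma adjusted p = 0.122). Gm12250, which works with GBPs to break open bacteria, averaged 1.47 ± 0.60 in Irf2_AhcKO and 0.29 ± 0.20 in control (difference 1.18, SE 0.22, limma adjusted p = 0.161), also without overlap. Gvin1, a very large GTPase, averaged 3.97 ± 0.12 in Irf2_AhcKO and 4.25 ± 0.19 in control (difference -0.28, limma adjusted p = 0.284). The following genes were chosen after their values were seen. Irgm2 differed by 1.91 and Igtp by 1.54, both with overlapping groups. Tgtp2 differed by 1.36 without overlap, as for 1.74% of all features with Irf2_AhcKO higher. Iigp1 differed by 0.15 and Tgtp1 by 0.38, both with overlap, and Tgtp1 by -0.53 on slide 2. Ifi47 differed by -0.51 with groups that did not overlap, as for 2.11% of all features with Irf2_AhcKO lower. None of these passed. Gbp2b, the remaining GBP of chromosome 3, had 2 probes that did not meet the filter.

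**Figure D4:**
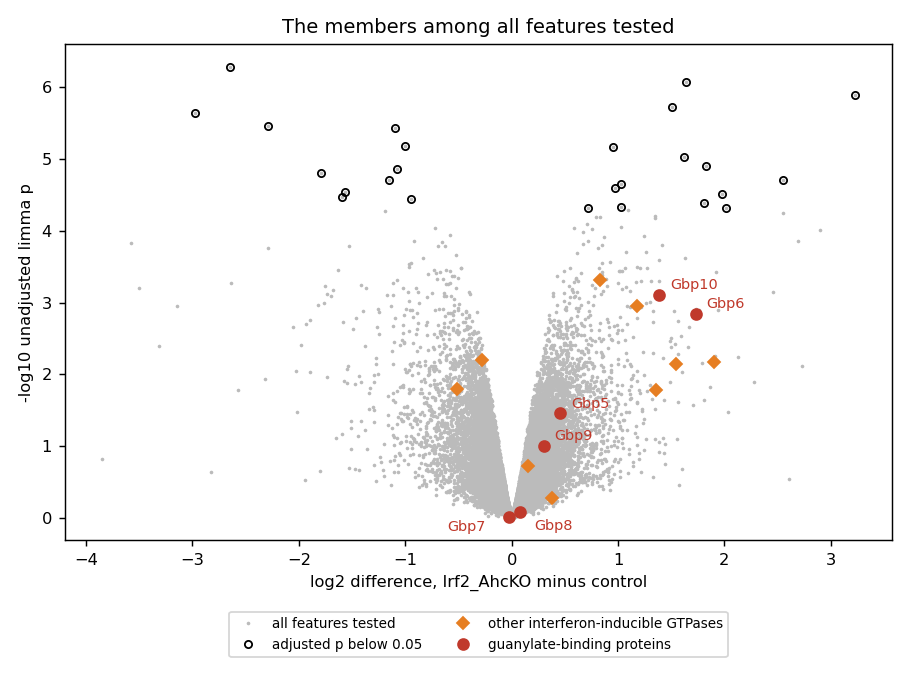
Negative log10 of the unadjusted limma p (y axis) against the log2 difference between Irf2_AhcKO and control (x axis) for all 25403 features in grey, with the 25 features past the threshold circled in black, the 9 measured other interferon-inducible GTPases as orange diamonds and the 6 tested GBPs as red dots. Gbp6 and Gbp10 lie at 1.73 and 1.39 below the circled features, beside Irgm1 at 0.83 and Gm12250 at 1.18, and Gbp7 and Gbp8 lie near 0.

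Genes of interferon gamma signalling, which induces GBPs, had a median difference of 0.19 over 12 measured of 13, and 0 passed. A positive difference was seen in 10 of the 12, against 49.5% of all features. At an unadjusted limma p below 0.05, 4 were higher, against 5.98% of all features, and 0 lower, against 5.74%. The transcription factor Irf8 averaged 2.13 ± 0.28 in Irf2_AhcKO and 1.52 ± 0.39 in control (SD, n = 4 each, difference 0.60, limma adjusted p = 0.202). Jak2, the kinase on the receptor, differed by 0.28. The ligand Ifng was below the filter.

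Of 10 inflammasome and pyroptosis genes, all measured, 1 passed and was lower, against 0.0433% of all features, and 0 passed as higher. It was Gsdmd, the pore-forming protein that executes pyroptosis, which fell to -0.38 ± 0.24 in Irf2_AhcKO, against 0.77 ± 0.41 in control (SD, n = 4 each, difference -1.15, SE 0.12, limma adjusted p = 0.0329). Gsdmd no longer passed when any 1 of the 8 arrays was left out, with the replicate block, without the slide term, on either slide alone, without a filter or with every probe tested on its own. At an unadjusted p below 0.05, 2 members were higher and 4 lower, against 5.98% and 5.74% of all features. The 5 of them other than Gsdmd are named after their values were seen. Casp4, the caspase that senses bacterial lipopolysaccharide in the cytosol, differed by 0.66 (limma adjusted p = 0.257) and Casp1, the inflammasome protease, by 0.31 (limma adjusted p = 0.336). Nlrp1b, an inflammasome sensor, differed by -0.96 (limma adjusted p = 0.337), the cytokine Il18 by -0.76 (limma adjusted p = 0.388) and Pycard, the inflammasome adaptor, by -0.24 (limma adjusted p = 0.366). The groups did not overlap for Casp4 and Casp1, with Irf2_AhcKO higher (1.74% of all features), nor for Gsdmd and Pycard, with Irf2_AhcKO lower (2.11%). The list's median was -0.12.

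Lists of genes that modify or assist GBPs had medians of at most 0.13 in size, and none of their genes passed. The 6 prenylation and CaaX genes, which add the lipid anchor to some GBPs, had a median of 0.02, with Fntb, a farnesyltransferase subunit, at 0.62, Icmt at 0.17 and Pggt1b at -0.13. The 10 genes of ATG8 conjugation, the autophagy system that guides these GTPases to vacuoles, had a median of -0.05, with Gabarapl1 at 0.25, Atg3 at -0.21 and Atg16l1 at 0.12. Among ubiquitin and kinase partners, 5 of 6 were measured with a median of 0.13. There Pim1, whose human protein keeps human GBP1 in check, differed by 0.57, Ube2l6 by -0.15 and Sqstm1 by 0.13. The atlastins, relatives of GBPs that shape the endoplasmic reticulum, differed by 0.17 for Atl2 and -0.10 for Atl3.

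Genes beside the clusters did not pass. Of the 6 nearest to the chromosome 3 cluster, 4 were measured, with Pdlim5 at 0.01, Kyat3 at -0.11, Gtf2b at -0.20 and Pkn2 at -0.09, and Bmpr1b and Unc5c were below the filter. Beside the chromosome 5 cluster, 2 of 6 were measured, with Zfp951 at -0.24 and Lrrc8b at 0.15. There Abcg3 and Lrrc8c were below the filter, and Gm20385 and Gm42166 had no matching probe.

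Marker lists of other cell types are given beside these values, since in bulk RNA fewer cells of a type and less RNA per cell cannot be told apart. No marker passed. Sums add the linear levels of a list's probes on 1 array and are weighted to the brightest probe, so they are set against the same sum on other arrays only. Sums of T cell, NK cell and intraepithelial lymphocyte markers (8 of 12 measured) were 9.36 to 10.8 in Irf2_AhcKO and 6.90 to 9.69 in control, overlapping as groups but higher in Irf2_AhcKO in 4 of 4 same-numbered pairs. Their median difference was 0.11, with 6 of 8 positive, Nkg7 at 0.40 and Lck at 0.36. Thy1 differed by -0.57 and Gzmb by -0.25 (both named after their values were seen). Nkg7 made up 49.6% of the sum. Cd3g, Cd3d and Cd8a were below the filter, while Cd3e was well above background on all 8 arrays. Macrophage and dendritic cell markers (10 of 11) summed to 128 to 280 in Irf2_AhcKO and 130 to 266 in control, higher in Irf2_AhcKO in 1 of 4 pairs. Itgam made up 85.6% of that sum, so it says little of the others. The list's median difference was -0.12, with 3 of 10 positive, among them Fcer1g at 0.53 and Cd14 at 0.36. Itgax was below the filter. B and plasma cell markers (4 of 6) summed to 0.475 to 0.647 in Irf2_AhcKO and 0.424 to 0.542 in control, higher in Irf2_AhcKO in 4 of 4 pairs. That list's median difference was 0.01, with 2 of 4 positive. Cd79b, well above background on 4 Irf2_AhcKO and 2 control arrays, differed by 1.33 (limma adjusted p = 0.190). Its groups did not overlap, as for 1.74% of all features with Irf2_AhcKO higher. Mzb1 differed by 0.03 and Pou2af1, which made up 36.6% of the sum, by -0.04. Endothelial markers (4 of 6) summed to 5.45 to 5.87 in Irf2_AhcKO and 5.40 to 5.84 in control, higher in Irf2_AhcKO in 4 of 4 pairs, with Kdr making up 88.1%. Mesenchymal markers (4 of 6) summed to 0.560 to 0.610 in Irf2_AhcKO and 0.491 to 1.19 in control.

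The sums of some epithelial lists did differ without overlap. Lgr5 stem cell markers (9 of 10) summed to 103 to 113 in Irf2_AhcKO and 116 to 128 in control, with Gkn3 at -0.64 and Ascl2 at -0.46. That list's median difference was -0.11, with 2 of 9 positive, and Slc12a2, at -0.01, made up 47.6% of the sum. Enterocyte markers (10 of 10) summed to 67.0 to 83.5 in Irf2_AhcKO and 92.3 to 1476 in control, the top value being control replicate 4. Sis made up 66.0% of that sum and averaged -2.29 ± 0.49 in Irf2_AhcKO and 1.56 ± 5.92 in control (SD, n = 4 each). The sum of control replicate 4 therefore says little of the other enterocyte markers. The list's median difference was -0.78, with Fabp2 at -0.50 and Rbp2 at -0.88. Alpi, Fabp1, Fabp2 and Rbp2 were lower without overlap, against 2.11% of all features. Anpep, without overlap, differed by 0.33 and Slc5a1, with overlap, by 0.38. Alpi, Fabp1, Anpep and Slc5a1 are named after their values were seen. At an unadjusted limma p below 0.05, 7 of the 10 were lower and 1 higher, against 5.74% and 5.98% of all features. Without control replicate 4, Gbp6 differed by 1.83 and Gbp10 by 1.52. Tuft cell markers (4 of 6) summed to 3.92 to 10.8 in Irf2_AhcKO and 3.17 to 4.73 in control, and enteroendocrine markers (6 of 6) to 9.01 to 15.6 in Irf2_AhcKO and 6.25 to 12.2 in control. Both sums overlapped as groups and were higher in Irf2_AhcKO in 4 of 4 pairs. Dclk1 made up 44.9% of the tuft sum, and Chgb, at 0.33, made up 69.2% of the enteroendocrine sum. The tuft list's median difference was 0.72, with 3 of 4 positive, Trpm5 at 0.75 without overlap and Dclk1 at 0.68. The enteroendocrine median was 0.30, with 5 of 6 positive, Chga at 0.72 without overlap and Tac1 at 0.54. Groups did not overlap, with Irf2_AhcKO higher, for 1.74% of all features. The sums of the pan-epithelial, Paneth and goblet lists overlapped. The part of any of these lists in the GBP differences was not tested.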

How the data were processed

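The values were measured in 8 samples, 4 Irf2_AhcKO and 4 control, grouped by GEO's labels. Per the labels' protocols, RNA was amplified with a whole-transcriptome kit and labelled with Cy3, a step that can distort single transcripts. Per the file headers, and by the submitters' processing notes, Agilent Feature Extraction 11.5.1.1 made the deposited scanner data, which give for each spot a processed intensity and 0 or 1 flags for background, saturation and outliers. The authors' deposited series table holds that intensity on a linear scale times 1 constant per array (6.41 to 6.90), uncentred, with column medians of 237, 246, 218 and 226 in Irf2_AhcKO and 230, 231, 207 and 222 in control. The sources used here do not say how the constants were set.

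From the intensity, log2 values were computed, less the 75th percentile of the non-control spots on the same array. Replicate spots were averaged after dropping outlier spots, and each gene took its kept probe of highest mean. Probes were named through the accession and RefSeq on GRCm38.p6: of 55681 probes, 28331 had 1 symbol, 27350 none and 0 several. The filter was well above background on at least 4 of 8 arrays. The fit was limma 3.58.1 (lmFit and eBayes, two-sided) in R 4.3.3, with a slide term and with Benjamini-Hochberg adjustment over all features. The scripts were tested on simulated data with noise drawn independently for each array. Beyond a slide effect, arrays that deviate together were not simulated. The small number of arrays limits the precision.

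Same-numbered arrays deviated together (r across features 0.46, 0.49, 0.52 and 0.53). They also lie on the same slide, and same-slide arrays of unlike number were not compared, so these r do not show pairing. The numbers were still used to match arrays, although the labels describe no shared litter or day. Pair counts and the block fit rest on that assumption. No 2 arrays held identical values. The members and lists were chosen with earlier results of these data known. Named were Irf2, all 10 members, passing list members or otherwise up to 3 per list by unadjusted p, the 3 genes nearest on each side of each cluster, the 3 genes most alike to each of 3 members, and up to 2 markers per list. Lgr5, Epcam and Cd3e were added as defining markers. The single values of 1 list member that this takes are not reported here, while list counts and medians include it. Alternatives covered background correction, scaling, filter, slide, block, variance model, probes and left-out arrays. Normexp used the median signal because the mean signal column is not in the scanner data used here, and naming by a gene name column was not run for the same reason.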

Additional observations from a re-analysis of the deposited data

How the results depend on the processing

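No GBP passed in any of the alternatives run except Gbp10 with a trended, robust variance model, which gave 1 passing member (adjusted p = 0.0324). Over 21 alternatives Gbp6 differed by 0.93 to 2.01 (adjusted p 0.0515 to 0.756), Gbp10 by 0.99 to 1.79 (adjusted p 0.0324 to 0.698), Gbp5 by 0.15 to 0.76, Gbp9 by 0.18 to 0.43 and Irf2 by 0.17 to 0.35, each positive throughout. Gbp7 changed sign on slide 1 alone (0.26) and ranged from -0.50 to 0.34 with 1 array left out. Gbp8 changed sign on slide 1 alone (-0.13) and ranged from -0.25 to 0.32 with 1 array left out. Without a filter on dim probes, Gbp2 differed by 0.52, Gbp3 by 0.87 and Gbp4 by 0.75 (limma adjusted p = 0.590, 0.625 and 0.548). With normexp the same probes differed by 0.02 for Gbp2, 0.21 for Gbp3 and 0.12 for Gbp4. With 1 array left out, Gbp6 differed by 1.39 to 1.97 and Gbp10 by 1.12 to 1.52.

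The count of passing features, 25 in the main setting, was less stable. It was 133 with normexp, 133 with the trended variance model, 46 with a filter on all 8 arrays, 15 with every probe on its own, 7 without a filter, and 0 on slide 1 or slide 2 alone. With the replicate block it was also 0, and the block changed no call of a member. Leaving out 1 array gave 0 to 25. It was 0 without Irf2_AhcKO replicate 1, Irf2_AhcKO replicate 2 or control replicate 2, 1 without Irf2_AhcKO replicate 3, 3 without Irf2_AhcKO replicate 4, 11 without control replicate 1 and 6 without control replicate 3. Of the other interferon-inducible GTPases, 1 passed with normexp and 2 with the trended model. The median of the inflammasome list was 0.21 with the filter on all 8 arrays, which kept 6 of its genes. The causes were not tested beyond the fewer arrays or other features that a setting itself brings. Gbp2, Gbp3, Gbp4 and Gbp8 are limited by signal near background.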
